A study of Mus musculus with 28 samples.

Results

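In reprogramming of mouse embryonic fibroblasts (MEFs), 93 genes of 37620 listed (0.247%) stood at least 4 times higher in K36M cells at day 4 (d4) or day 8 (d8) than in any WT group. Counts were scaled to the library total as CPM, 2 libraries were averaged per group, 0.5 CPM was added to both sides, and at least 5 CPM was required in K36M d4 or K36M d8. These values chose the genes, so the excess of K36M d4 and d8 over WT is given as a description with no test. All 93 were among the 16932 genes with enough counts to be tested, and 92 would still have been so without the K36M d4 and d8 libraries. By gene type, 89 were protein coding, 2 pseudogenes, 1 a processed transcript and 1 a lincRNA.

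The polyA-selected RNA-seq series held 28 libraries, 2 for each of 14 groups. The K36M groups were MEFs at d0, cells reprogrammed for 2, 4, 6 or 8 days (d2, d4, d6, d8), passaged iPSCs, and MEFs without the factors, written noOKSM, and the WT groups were the same 7 stages. OKSM stands for the reprogramming factors Oct4, Klf4, Sox2 and Myc. The labels give the genotypes as K36M and WT, name the WT libraries after histone H3.3 and give no strain, age or sex, and whether the 2 libraries of a group came from separate cultures is not stated, so the p-values measure the spread between libraries, which may be technical. The K36M allele itself cannot be read from counts per gene. The culture medium was DMEM with serum for MEFs, AGi for reprogramming cells and S/L for iPSCs, so the effect of stage cannot be told apart from that of medium where reprogramming cells are set against MEFs or iPSCs. Library totals ran between 17507521 counts in K36M iPSC replicate 1 and 35622279 in WT noOKSM replicate 1. A list of 25 naive pluripotency genes summed to 9569 to 10110 CPM in K36M iPSCs and 9976 to 10290 CPM in WT iPSCs, against 100.4 to 100.5 CPM in K36M d0 and 93.1 to 96.0 CPM in WT d0, and all 20 genes of a fibroblast list were at 1 CPM or more in K36M d0. Of these 20 fibroblast genes, 0 rose and 18 fell in K36M iPSCs against K36M d0 (edgeR adjusted p below 0.05). In K36M iPSCs against K36M d6, 19 of the 20 rose and 0 fell, where 33.6% of all tested genes rose. Their median log2 fold change there was 2.67, and the part of fibroblasts in the iPSC libraries was not tested. In these bulk samples, fewer cells of a type and less RNA per cell cannot be told apart.

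As background, a histone H3 that carries methionine in place of lysine 36 inhibits the enzymes that methylate this residue, a mark known for holding back silencing by Polycomb over active genes. During reprogramming, fibroblasts lose their mesenchymal programme, take on epithelial keratins and adhesion molecules, and later activate the pluripotency network. Genes of epidermal differentiation are known for building the cornified envelope and lipid barrier of the skin.

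Sbsn, Dmkn and Krtdap, which have epidermal names, lay side by side on chromosome 7. Their promoters and that of Scel are shown because they were the 4 of 10 stratified epithelium promoters that held the AP-1 letters described here, and the other 6 (Abca12, Tgm1, Ppl, Krt5, Klk10 and Ly6g6c) held none. They encode suprabasin, dermokine and keratinocyte differentiation-associated protein, secreted products of the differentiating epidermis. On the mm9 build and the plus strand they spanned chr7:31536490-31541152, chr7:31548775-31566085 and chr7:31572924-31576102, with gaps of 7623 and 6839 bases. Scel, on the plus strand of chromosome 14, encodes sciellin, a precursor of the cornified envelope. The windows run 250 bases before to 50 after the GENCODE gene start, at chr7:31536240-31536539 for Sbsn, chr7:31548525-31548824 for Dmkn, chr7:31572674-31572973 for Krtdap and chr14:103912308-103912607 for Scel, and are the same letters as RefSeq's windows for these genes. Capitals mark matches to the AP-1 motif TGANTCA and, in Krtdap, to the TATA box TATAAA.
Sbsn: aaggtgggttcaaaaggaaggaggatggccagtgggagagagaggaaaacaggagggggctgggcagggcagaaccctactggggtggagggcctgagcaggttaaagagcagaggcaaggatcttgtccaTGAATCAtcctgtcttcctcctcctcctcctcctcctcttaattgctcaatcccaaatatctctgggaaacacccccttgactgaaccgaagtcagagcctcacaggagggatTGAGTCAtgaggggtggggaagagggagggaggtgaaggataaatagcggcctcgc
Dmkn: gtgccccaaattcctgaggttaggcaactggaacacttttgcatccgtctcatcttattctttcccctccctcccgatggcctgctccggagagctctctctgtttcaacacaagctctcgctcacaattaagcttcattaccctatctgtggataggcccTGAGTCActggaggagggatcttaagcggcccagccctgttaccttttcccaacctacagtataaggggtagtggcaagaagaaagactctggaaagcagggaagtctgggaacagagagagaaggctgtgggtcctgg
Krtdap: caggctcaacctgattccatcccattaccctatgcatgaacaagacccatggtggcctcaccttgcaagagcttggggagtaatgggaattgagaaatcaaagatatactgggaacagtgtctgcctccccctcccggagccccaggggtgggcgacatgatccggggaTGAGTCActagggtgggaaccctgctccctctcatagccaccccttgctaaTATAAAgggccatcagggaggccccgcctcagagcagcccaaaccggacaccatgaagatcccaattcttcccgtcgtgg
Scel: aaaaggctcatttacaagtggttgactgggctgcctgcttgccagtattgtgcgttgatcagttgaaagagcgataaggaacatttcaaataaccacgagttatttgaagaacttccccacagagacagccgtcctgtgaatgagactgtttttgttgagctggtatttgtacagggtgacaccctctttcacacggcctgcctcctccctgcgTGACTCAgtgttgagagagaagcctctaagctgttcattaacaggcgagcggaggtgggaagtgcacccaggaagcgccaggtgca
The AP-1 letters began 119 and 6 bases before the start in Sbsn, 89 before it in Dmkn, 81 before it in Krtdap and 36 before it in Scel, and the TATA letters of Krtdap began 30 bases before its start. On either strand, TGANTCA was in 10 of the 93 windows (10.8%) and in 5.57% of all tested genes' windows, and it was searched for after the values had been seen. The promoters of the 93 had a median CpG observed over expected ratio of 0.333, against 0.691 over the tested genes, and 25 of them (26.9%) reached 0.6, against 59.6%. The ligand, receptor and T promoters had the highest median of the 9 role groups described below (0.604), with 8 of 14 at 0.6 or more, and the 6 muscle, nerve and inner ear promoters the lowest (0.203). The E-box letters CAGGTG were in 32.3% of the 93 windows and 19.3% of all, CAGCTG in 28% and 15.3%, TATAAA in 14% and 8.84%, the GATA motif AGATAA in 9.68% and 7.25%, the octamer TTTGCAT in 3.23% and 3.72%, and the grainyhead motif AACCNGTT in 1.08% and 1.88%. These matches are descriptions of letters, not of binding. Other neighbours within 100 kb were Slfn3, AI662270 and Gm11427 on chromosome 11, the keratin pair Krt8 and Krt18 on chromosome 15, Sncg and Mmrn2 on opposite strands of chromosome 14 with 715 bases between them, and Robo3 and Esam on chromosome 9.

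**Figure D1:**
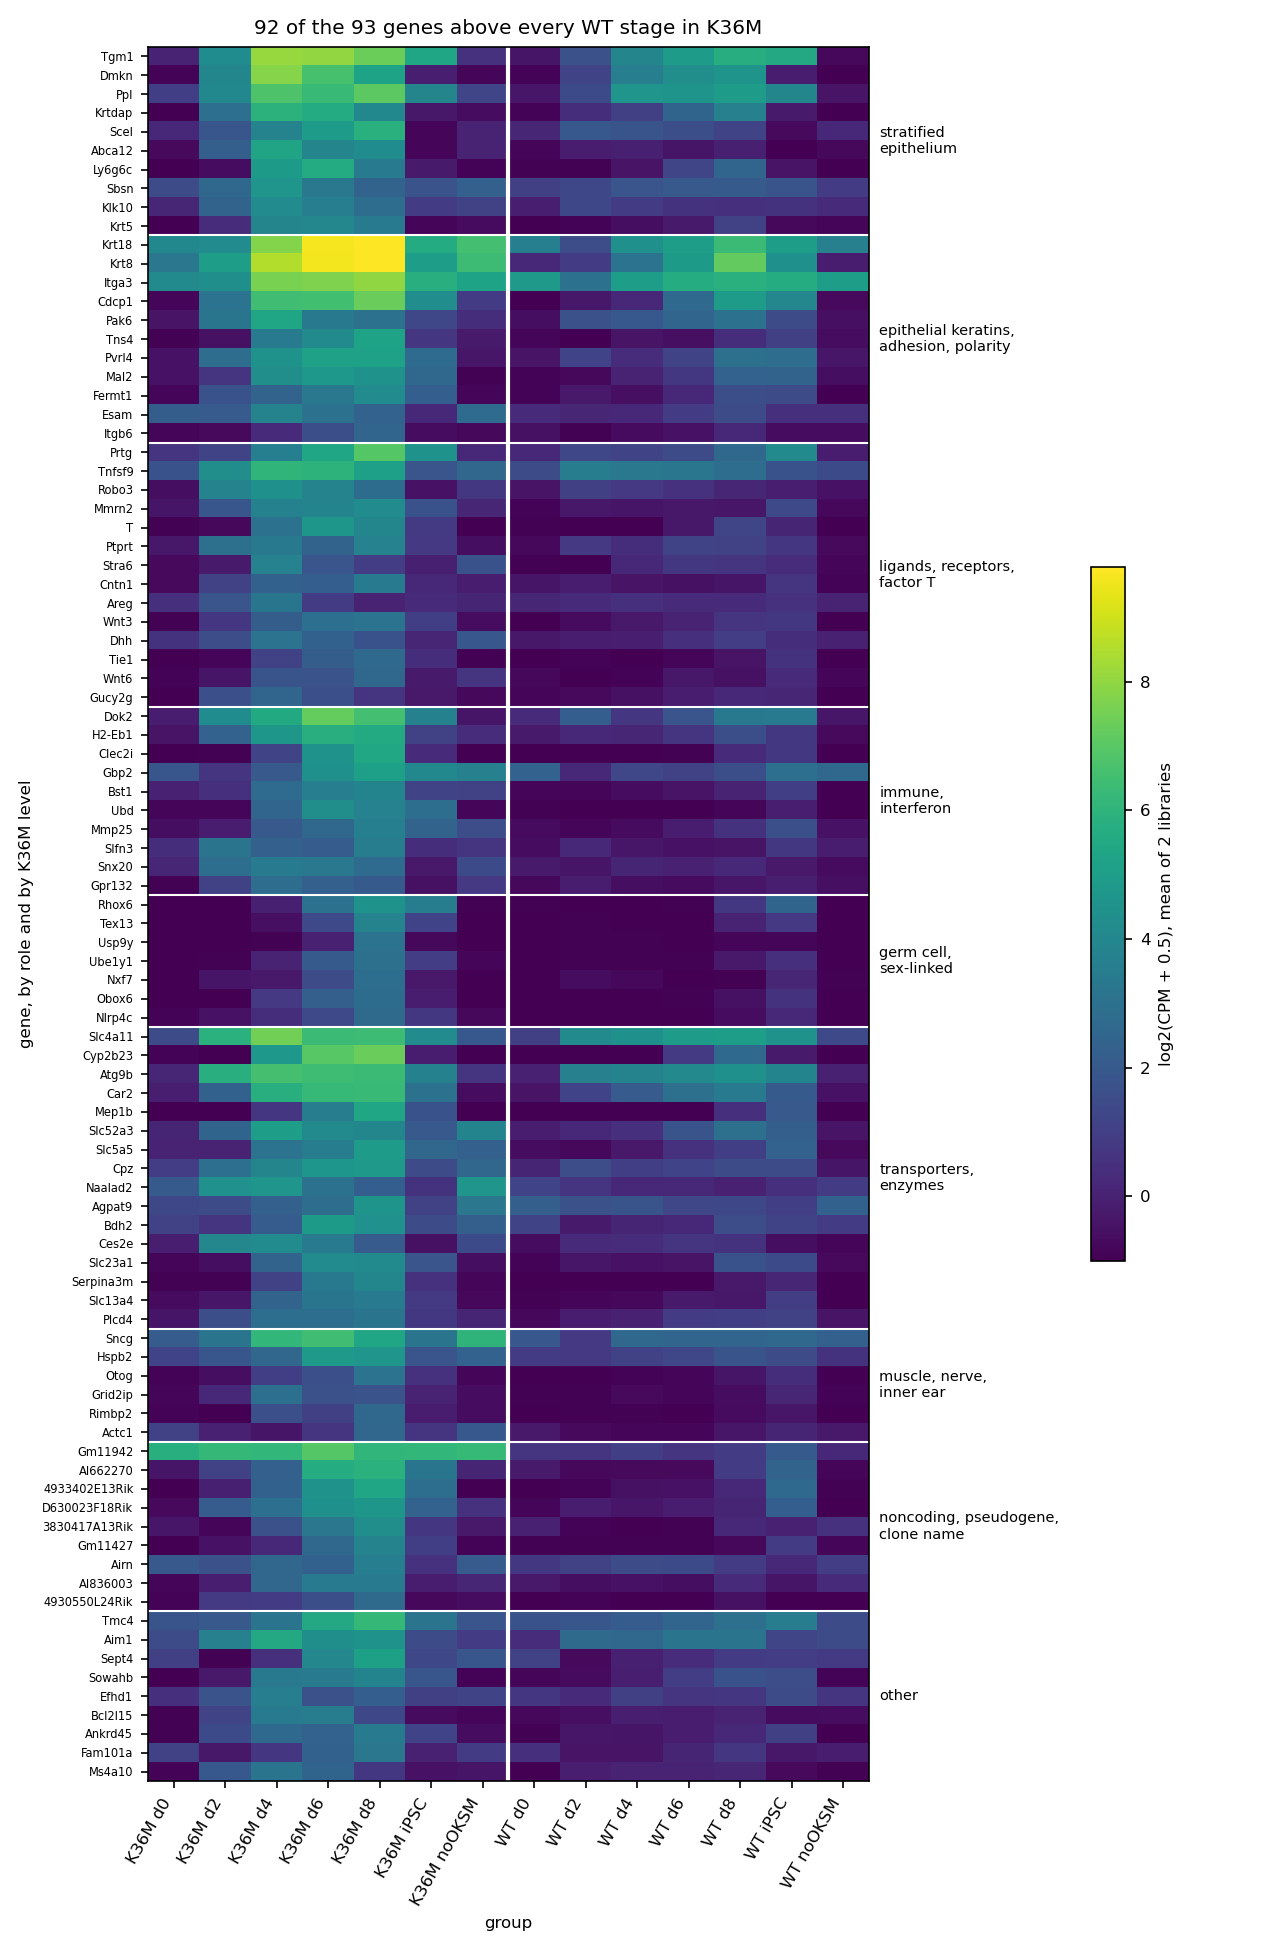
Mean level of 92 of the 93 genes in the 14 groups, as log2(CPM + 0.5) of the mean of 2 libraries, with K36M groups left of the WT groups and genes (rows) grouped by role. The bright columns are K36M d4, d6 and d8, and the Gm11942 row is bright in all 7 K36M groups.

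Of the 93 genes, 25 met the rule at d4 alone, 53 at d8 alone and 15 on both days. The ratio of K36M to the highest WT group had a median of 6.39 and ran between 4.04 and 40.8, and 20 genes reached 10 or more. The highest WT group was iPSC for 40 genes and d8 for 37. The lower K36M library of the higher day was above all 14 WT libraries for 93 of 93. Just inside the 4-fold limit lay Slc52a3 at 4.04, Mmp25 at 4.09 and Rhox6 at 4.17, and just outside it Hopx at 3.99, Cldn3 at 3.95 and S100a3 at 3.95. At the 5 CPM minimum, Gucy2g (5.21 CPM), Itgb6 (5.26) and Actc1 (5.37) were inside and Hand1 (4.87), Comp (4.74) and Wnt10a (4.64) outside.

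Across stages, the median over the 93 genes was low in fibroblasts, highest at d4 to d8 in K36M cells and low again in iPSCs, with exceptions such as Gm11942, Krt8 and Krt18 described below. The median level in K36M cells was 0.213 CPM at d0 and 1.84 at d2, then 8.05 at d4 and 11.0 at d6, and 14.2 at d8, and it was 1.50 in iPSCs and 0.572 in noOKSM MEFs. In WT cells the medians were 0.131, 0.303, 0.436, 0.670, 1.16, 1.22 and 0.108 CPM over the same stages. K36M d6, which the rule did not use but which lies between the days it did use, met the same limits for 42 of the 93 genes, against 60 of all 37620 genes (0.159%). K36M d2 met them for 6 (0.0319% of all genes), K36M iPSC for 2 (0.00797%), K36M noOKSM for 3 (0.0771%) and K36M d0 for 1 (0.0266%). The WT side of these limits is the one that chose the 93 genes, and the counts over all genes include the 93. These counts are therefore a description with no test.

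**Figure D2:**
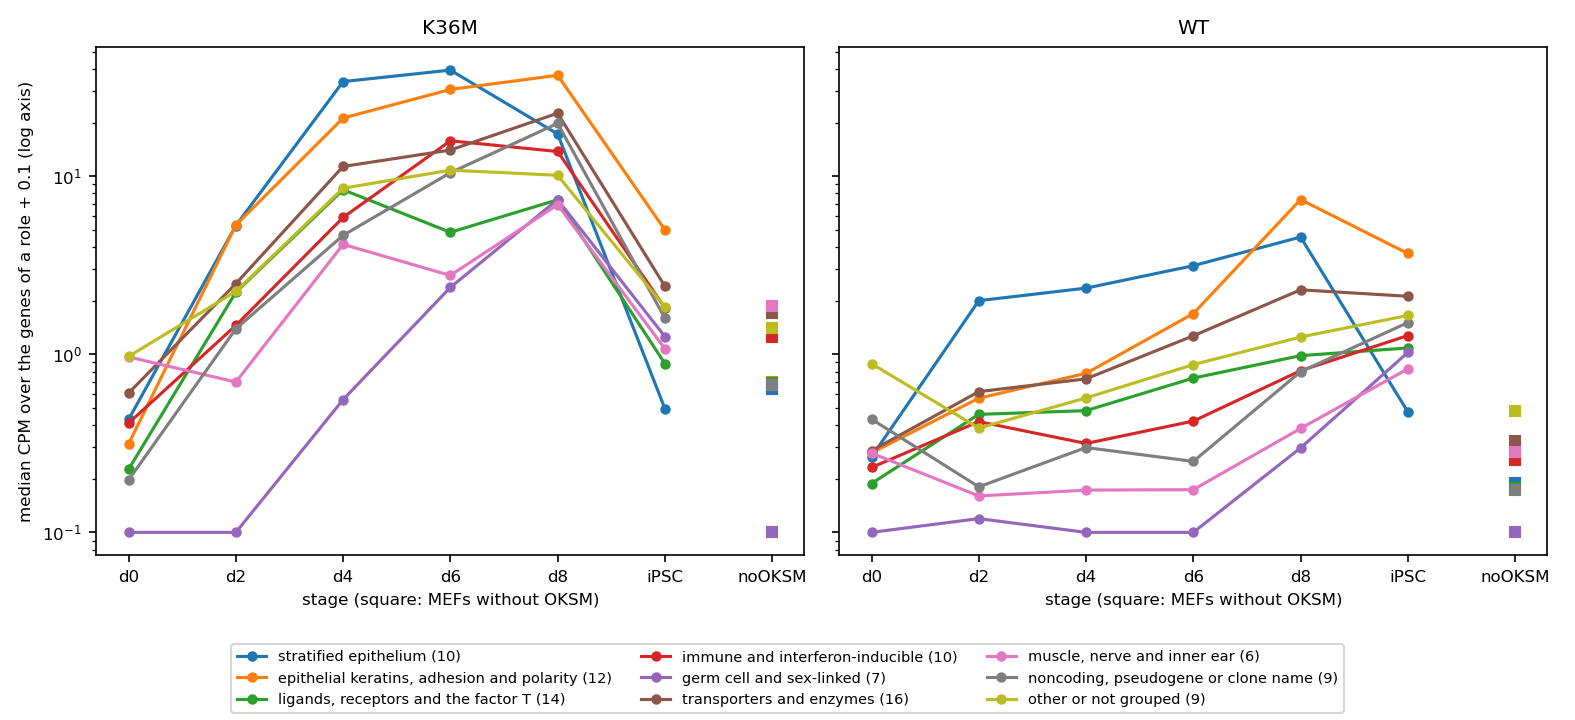
Median CPM (log axis, 0.1 added) over the genes of each role group by stage, K36M left and WT right, with the number of genes in the legend. In K36M cells the stratified epithelium genes had medians of 33.9 CPM at d4 and 39.3 at d6, and the germ cell and sex-linked genes reached their highest median at d8. K36M levels at d4 and d8 were used to choose the genes.

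The tests compared K36M groups that the rule had not used, so that each asks how the genes moved between stages within K36M cells. K36M d6 lies between the days the rule used, and WT levels of d0, d2 and iPSCs entered the rule. Rises to d6 and falls from d6 to iPSCs are thus in part set by how the genes were chosen. The shares of all tested genes are given beside them for scale only. At K36M d2 against K36M d0, 55 of the 93 genes rose and 7 fell (edgeR quasi-likelihood test, adjusted p below 0.05), where 30% of all tested genes rose and 31.2% fell. At K36M d6 against K36M d2, 82 rose and 5 fell, against 36.5% and 31.4% of all tested genes. In K36M iPSCs against K36M d6, 0 rose and 88 fell, against 33.6% and 32% of all tested genes, and 0 of the 93 had a positive change with an unadjusted p below 0.05 or a rise by DESeq2. In K36M iPSCs against K36M d0, 65 rose and 9 fell (39.4% and 36.1% of all tested genes), and in K36M noOKSM MEFs against K36M d0, 37 rose and 3 fell (18.8% and 15.6%). The falls at d2 were 4 without K36M d2 replicate 1 and 4 without replicate 2, those at d6 were 3 without K36M d6 replicate 1, and the rises in iPSCs against d6 were 1 without K36M d6 replicate 1. The noOKSM falls were 0 without K36M d0 replicate 2 and 1 without each K36M noOKSM library in turn.

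The median log2 fold changes over the 93 genes in these 5 comparisons were 2.33, 3.31, -2.75, 2.73 and 1.18, where those over all tested genes lay between 0.02 and 0.09. With genes at 0 counts in a group set to the bound that 3 counts over the group allow, and genes at or under 3 counts in both groups set to no change, the medians were 2.03, 3.22, -2.75, 2.54 and 0.94. The comparisons share K36M d0, d2 or d6 libraries, so their counts are not independent of each other. The 2 K36M d6 libraries differed more than other pairs: 9 of the 93 genes were at least 2-fold higher in replicate 1 and 5 in replicate 2, and the median absolute log2 difference was 0.43 over the 93 and 0.32 over all tested genes. Ddx3y, a Y-linked gene, was at 40.2 CPM in K36M d6 replicate 1 and 108 in replicate 2. The part of this difference in the d6 results was not tested beyond leaving out each library.

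**Figure D3:**
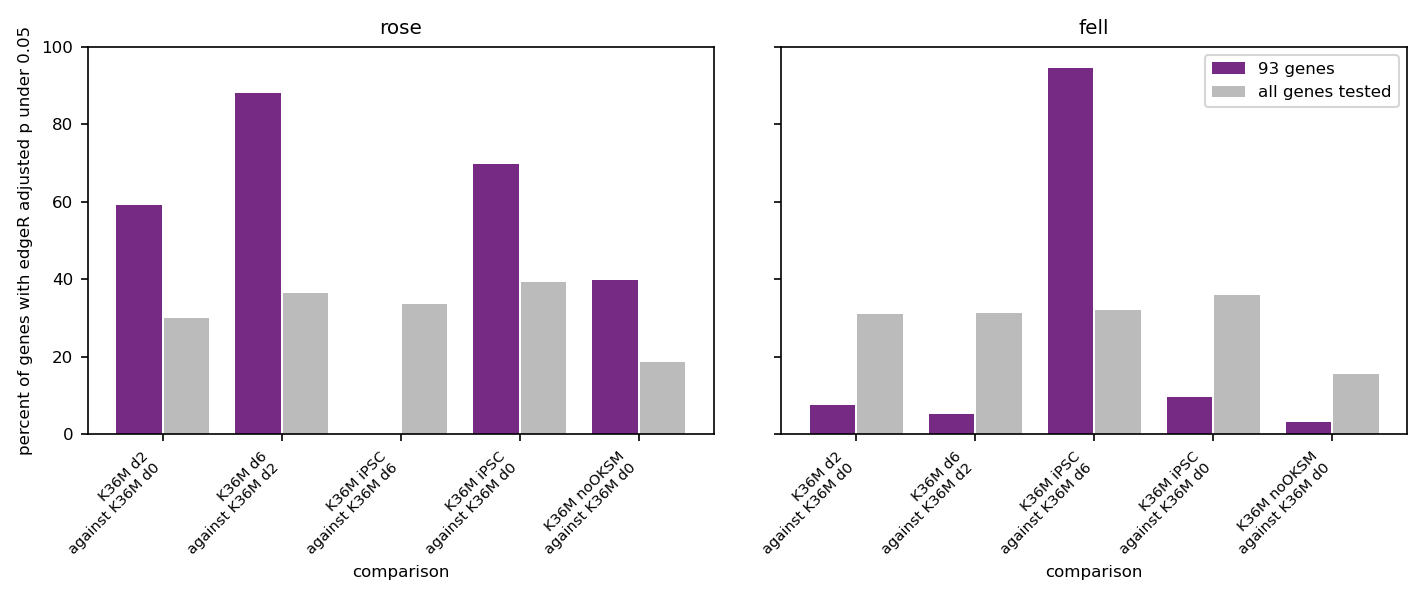
Percent of the 93 genes (purple) and of all 16932 tested genes (grey) that rose (left) or fell (right) in each of the 5 comparisons between K36M groups, by edgeR's adjusted p. The purple bar is highest among falls for K36M iPSC against K36M d6, at 88 of 93 genes.

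The 10 genes of stratified epithelium, a group made after the values were seen, moved alike in 3 of the comparisons. All 10 rose at K36M d2 against d0, where 55 of the 93 and 30% of all tested genes rose. All 10 rose at d6 against d2, where 82 of the 93 and 36.5% of all tested genes rose. All 10 fell in iPSCs against d6, with a median log2 fold change of -7.22, where 88 of the 93 and 32% of all tested genes fell. All genes of the keratin, signalling and transporter groups below fell there too, and role counts are to be read beside these shares. In K36M iPSCs 6 of the 10 stratified epithelium genes had mean levels of at most 0.423 CPM, while Tgm1 was at 41.4, Ppl at 14.5, Sbsn at 2.85 and Klk10 at 1.41 CPM. Abca12, which loads lipid into the lamellar granules of keratinocytes, had the largest ratio of the 93. Its K36M libraries held 0.115 and 0.0787 CPM at d0 and 3.74 and 4.85 at d2, then 39.0 and 39.0 at d4 and 5.84 and 23.4 at d6. At K36M d8 they held 17.9 and 19.2 CPM, with 0.0571 and 0.0558 in iPSCs and 0.730 and 0.378 in noOKSM MEFs. Its WT libraries were between 0 and 0.615 CPM at every stage. K36M and WT thus did not overlap from d2 to d8, and the K36M d6 libraries were 4 times apart, the widest gap among these 10 genes. Abca12 rose by 5.10 ± 0.87 (SE) on the log2 scale at K36M d2 against d0 and by 1.78 ± 0.41 at d6 against d2 (edgeR adjusted p = 4.3e-05 and 0.000771), and the second call was lost without K36M d6 replicate 2.

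Dmkn had 15.9 and 14.3 CPM in the K36M d2 libraries, 223 and 228 at d4, 77.8 and 123 at d6, then 37.5 and 38.5 at d8 and 0.400 and 0.446 in iPSCs. In WT it had 1.77 and 1.79 CPM at d2 and 12.3 and 11.1 at d4, then 20.2 and 18.5 at d6, with 22.5 and 23.8 at d8 and 0.220 and 0.590 in iPSCs. K36M peaked at d4 and declined after it, while WT was highest at d8, so that the genotypes stood closest among these days at d8 and overlapped in iPSCs. Krtdap had 0 counts at K36M d0, 7.10 and 7.24 CPM at d2, 60.6 and 61.1 at d4, 33.6 and 63.2 at d6, 15.0 and 16.5 at d8 and 0.171 and 0.446 in iPSCs. Its d6 replicate 2 stood above both d4 libraries and replicate 1 below them. Krtdap had at least 123-fold more at K36M d2 than at d0, taking 3 counts over the d0 libraries as the floor (edgeR adjusted p = 8.19e-10). In iPSCs against K36M d6, the log2 fold change was -7.94 ± 0.29 for Dmkn and -7.33 ± 0.37 for Krtdap (edgeR adjusted p = 1.94e-15 and 8.33e-13). Their neighbour Sbsn moved less: 5.95 and 5.08 CPM at K36M d2, 24.9 and 23.7 at d4, 5.36 and 4.27 at d8, and 2.74 and 2.96 in iPSCs, against 1.90 to 4.05 CPM in the WT libraries of d2 to d8.

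Tgm1, the transglutaminase that cross-links the cornified envelope, and Ppl, the envelope plakin periplakin, did not return to their d0 levels in iPSCs. Tgm1 had 285 and 271 CPM at K36M d4, 255 and 270 at d6, 160 and 164 at d8 and 43.0 and 39.8 in iPSCs, against 14.7 and 14.2, 31.7 and 29.1, 54.1 and 48.5, and 41.0 and 48.2 CPM in the WT libraries of the same stages. The genotypes overlapped in iPSCs, and K36M iPSCs were above K36M d0 by 5.82 ± 0.16 on the log2 scale (edgeR adjusted p = 9.73e-19). Scel was highest at K36M d8, with 58.1 and 55.6 CPM, against 1.56 and 2.07 CPM in WT d8, and 2 counts remained over both K36M iPSC libraries, against 1378 at K36M d6. Krt5, a keratin of basal epidermal cells, had 14.9 and 13.8 CPM at K36M d4 and 0.108 and 0.194 CPM at WT d4, and had 30 counts at K36M d2 against 0 at d0, at least 13.4-fold more (edgeR adjusted p = 5.29e-05). Klk10, a kallikrein-related peptidase, and Ly6g6c, a Ly6 family protein, completed the group, and the d2 call of Ly6g6c rested on 6 counts in K36M d2 replicate 1, without which the log2 fold change was 0.

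The other genes known from stratified epithelium were mixed. Of a list of 24 keratinocyte genes, 2 of which (Krt5 and Krtdap) are among the 93, 19 were tested: 12 rose and 2 fell at K36M d6 against d2, and 2 rose and 13 fell in iPSCs against d6, with medians of 2.08 and -2.56 on the log2 scale. The list summed to 1226 to 1256 CPM in K36M d4 and 364 to 399 in WT d4. Trp63, the transcription factor that defines the stratified lineage, had 0 counts in K36M d2 and d4 and at most 0.274 CPM at d6 and d8, and the suprabasal keratin Krt1 and the envelope proteins Ivl and Lor were at or below 0.336 CPM in K36M d2 to d8. Krt14, the partner of Krt5, had 16.6 and 19.4 CPM at K36M d4, against 0.161 and 0.486 CPM at WT d4. The genes are named here by what they are known for, not as a sign of a cell type.

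**Figure D4:**
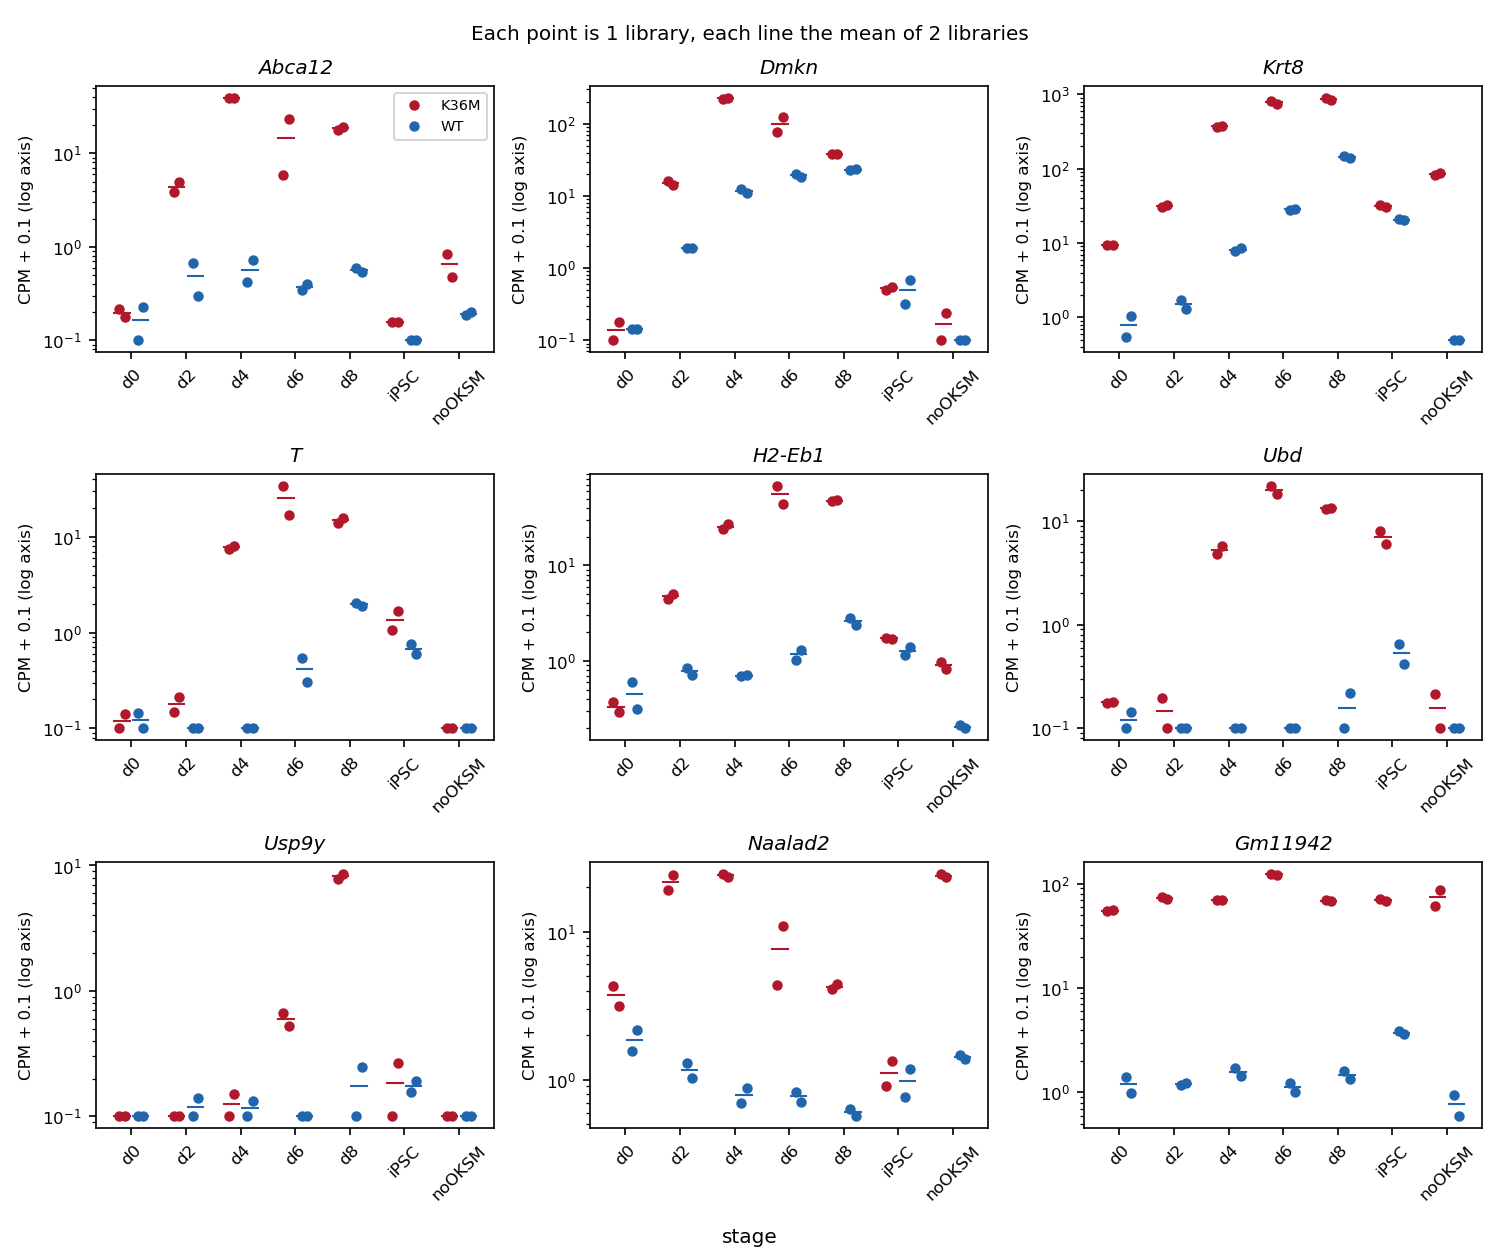
CPM (log axis, 0.1 added) of 9 of the genes in every library by stage, K36M (red) left of WT (blue), with a line at the mean of 2 libraries. Dmkn peaks at K36M d4, Usp9y is high at K36M d8, Naalad2 is as high in K36M noOKSM MEFs as at d4, and Gm11942 is high in every K36M library.

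In a group of 12 keratin, adhesion and polarity genes, 8 rose at K36M d2 against d0 and 11 rose at d6 against d2. All 12 fell in iPSCs against d6. The group was named for epithelia but also holds Esam, known from endothelium and described below. Krt8 and Krt18 are the keratin pair of simple epithelia. Krt8 had 9.26 and 9.28 CPM at K36M d0 and 30.5 and 32.3 at d2, then 361 and 378 at d4 and 816 and 742 at d6, with 889 and 832 at d8 and 32.4 and 30.2 in iPSCs, against 0.454 and 0.939, 1.61 and 1.21, 7.75 and 8.42, 28.1 and 28.7, 147 and 140, and 20.6 and 20.6 CPM in WT. The genotypes did not overlap at any of these stages. The log2 fold change of Krt8 was 4.62 ± 0.11 at K36M d6 against d2 and -4.71 ± 0.11 in K36M iPSCs against d6 (edgeR adjusted p = 1.14e-18 and 1.73e-18). Krt18 had 15.8 and 15.8 CPM at K36M d0 and 18.3 and 17.7 at d2, which did not pass the test (edgeR adjusted p = 0.562), and then 917 and 689 CPM at d6, against 33.2 and 29.6 CPM at WT d6.

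Among the others, Tns4, a focal adhesion tensin, rose by 6.34 ± 0.33 on the log2 scale at K36M d6 against d2 (edgeR adjusted p = 3.32e-13). Itga3, a laminin-binding integrin, had 202 and 187 CPM at K36M d4 and 247 and 260 at d8, against 29.3 and 33.6, and 58.7 and 56.5 CPM in WT. Pak6, a p21-activated kinase, was highest at K36M d4 with 41.7 and 41.3 CPM, and at d8 its K36M libraries (7.22 and 7.78 CPM) overlapped the WT ones (8.11 and 7.22). Of a list of 25 simple epithelium genes, 3 of which are among the 93, 24 were tested, and 24 rose at K36M d6 against d2 while 18 fell and 2 rose in iPSCs against d6. Of the 25 trophoblast genes listed, which include Krt8, Krt18 and Wnt6, 21 were tested, and 17 rose and 3 fell at K36M d6 against d2. That list summed to 2924 to 3140 CPM in K36M d8 and 853 to 858 in WT d8. Krt8 and Krt18, keratins of simple epithelia that the rule chose for their level in K36M d8, made up a large part of the K36M sum. The list was not summed without them.

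Of 14 genes grouped for signalling, 10 rose and 2 (Areg and Ptprt) fell at K36M d6 against d2. All 14 fell in iPSCs against d6. Mmrn2, an endothelial matrix protein described below, was placed with these 14. The iPSC call of Areg (log2 fold change -0.98, edgeR adjusted p = 0.0429) was lost with DESeq2, with RLE scaling, in a fit of K36M libraries alone, and without K36M iPSC replicate 1, and its log2 fold change was -0.04 without K36M d6 replicate 2. T (brachyury), the transcription factor of the primitive streak, had 7.41 and 7.97 CPM at K36M d4, 33.9 and 17.1 at d6 and 14.0 and 15.7 at d8, against 0 counts at WT d4, 0.439 and 0.203 CPM at WT d6 and 1.96 and 1.78 CPM at WT d8. Every K36M library of d4 to d8 was above every WT library, and the K36M d6 replicates were 2-fold apart. In iPSCs T had 0.971 and 1.56 CPM in K36M and 0.659 and 0.499 CPM in WT, and its log2 fold change between K36M iPSCs and d6 was -4.39 ± 0.32 (edgeR adjusted p = 6.6e-10). Wnt3, the Wnt ligand needed for the streak, had 9.42 and 4.71 CPM at K36M d6 and 7.93 and 8.27 at d8, against 0.439 and 0.660, and 1.16 and 0.961 CPM in WT. Wnt6 had 6.79 and 4.44 CPM at K36M d8, against 0.178 and 0.204 CPM at WT d8. Of 24 listed streak and Nodal genes, T and Wnt3 included, 18 were tested, and 15 rose and 0 fell at K36M d6 against d2, while 6 rose and 8 fell in iPSCs against d6. Of 24 listed Wnt ligands and targets, 23 were tested, and 13 rose and 6 fell at d6 against d2.

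Other ligands and receptors peaked at different days. Areg (amphiregulin), a ligand of the EGF receptor, had 3.21 and 3.02 CPM at K36M d2, 8.51 and 8.67 at d4, 0.753 and 2.06 at d6 and 0.492 and 0.548 at d8, against 0.535 to 0.907 CPM in the WT libraries of d2 to d8. K36M was above WT at d2 and d4, and at d8 the K36M libraries (0.492 and 0.548 CPM) overlapped the WT ones (0.535 and 0.874 CPM). Areg fell by 1.13 on the log2 scale at K36M d6 against d2 (SE 0.32, edgeR adjusted p = 0.00373), a call lost without K36M d6 replicate 1. Stra6, a receptor for retinol-binding protein, had 13.6 and 13.0 CPM at K36M d4 and 1.81 and 1.09 at d8, against 0.753 and 0.550, and 1.16 and 0.991 CPM in WT. Robo3, an axon guidance receptor, was already high at K36M d2, with 14.6 and 12.8 CPM, against 1.40 and 1.75 CPM at WT d2, and rose by 6.13 ± 0.31 on the log2 scale at K36M d2 against d0 (edgeR adjusted p = 4.89e-14). Gucy2g, a receptor guanylyl cyclase, had 100 counts at K36M d2 and 0 at d0, at least 44.7-fold more (edgeR adjusted p = 6.88e-10). Prtg (protogenin), an immunoglobulin superfamily protein of early embryos, had 12.5 and 11.7 CPM at K36M d4, 51.6 and 30.1 at d6 and 122 and 120 at d8, against 4.41 and 6.76 CPM at WT d8.

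The 93 also held genes known from endothelium. Tie1, an endothelial receptor tyrosine kinase, had 5.53 and 6.41 CPM at K36M d8, against 0.267 and 0.233 CPM at WT d8. Esam, an adhesion molecule of endothelium, had 14.6 and 12.7 CPM at K36M d4, against 0.592 and 0.745 CPM at WT d4, and Mmrn2, an endothelial matrix protein, had 17.4 and 18.5 CPM at K36M d8, against 0.357 and 0.233 CPM at WT d8. A list of 14 endothelial genes, Tie1 and Esam included, summed to 174 to 177 CPM in K36M d8 and 105 to 110 in WT d8. All 14 were tested, and 8 rose and 3 fell at K36M d6 against d2. Cdh5, the cadherin that defines endothelium, was at or below 0.875 CPM in the K36M libraries of d2 to d8, and Emcn was at 0 counts at K36M d6 and d8. The part of other cells in these values was not tested.

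Of 10 immune and interferon-inducible genes, 8 rose and 1 fell at K36M d6 against d2, and 0 rose and 8 fell in iPSCs against d6. H2-Eb1, a beta chain of MHC class II, had 4.37 and 4.96 CPM at K36M d2, 23.8 and 26.8 at d4, 67.4 and 44.0 at d6 and 47.0 and 48.1 at d8, against 0.742 and 0.623, 0.592 and 0.615, 0.927 and 1.22, and 2.72 and 2.30 CPM in WT. K36M and WT did not overlap from d2 to d8. In iPSCs K36M had 1.66 and 1.62 CPM (29 counts in each library) and WT 1.04 and 1.31 (19 and 29 counts). That difference was under 2-fold. H2-Eb1 rose by 4.00 ± 0.33 at K36M d2 against d0 and by 3.57 ± 0.18 at d6 against d2 on the log2 scale (edgeR adjusted p = 3.41e-10 and 4.73e-14). Of other class II genes, named after their values were seen, H2-Ab1 had 11.2 and 7.44 CPM at K36M d6, against 0.488 and 0.660 CPM at WT d6, and Ciita, the activator of class II genes, was at or below 0.657 CPM in every library.

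Ubd (FAT10), a ubiquitin-like modifier induced by cytokines, kept a K36M excess in iPSCs. It had 21.5 and 18.0 CPM at K36M d6, 13.0 and 13.2 at d8 and 7.88 and 5.86 in iPSCs, against 0 counts at WT d6, 0 and 0.117 CPM at WT d8 and 0.549 and 0.318 CPM in WT iPSCs. The K36M iPSC libraries were both above every WT library, and Ubd was lower in K36M iPSCs than at d6 (log2 fold change -1.59 ± 0.23, edgeR adjusted p = 5.97e-06). Gbp2, a guanylate-binding protein induced by interferon, had 27.6 and 13.3 CPM at K36M d6 and 34.4 and 31.6 at d8, against 1.46 and 1.88, and 2.72 and 2.27 CPM in WT, and 15.5 and 16.5 CPM in K36M iPSCs against 6.31 and 8.21 in WT iPSCs. It fell by 1.91 at K36M d2 against d0 and rose by 4.27 at d6 against d2 on the log2 scale (SE 0.34 and 0.29, edgeR adjusted p = 3.87e-05 and 1.17e-11). Gbp2 counts were also lower in WT at d2 (15 and 18) than at d0 (112 and 106). Clec2i, a C-type lectin-related ligand of natural killer receptors, had the second largest ratio of the 93, with 41.1 and 42.8 CPM at K36M d8, against 0.668 and 0.816 CPM at WT d8. Slfn3, of the schlafen family, had 8.35 and 8.61 CPM at K36M d2, 4.78 and 4.09 at d4, 1.60 and 6.18 at d6 and 10.1 and 12.7 at d8, and the d6 replicates stood farther apart than those of the other days. A list of 24 interferon response genes, Gbp2 included, had 23 tested, of which 15 rose and 3 fell at K36M d6 against d2 and 16 rose and 3 fell in iPSCs against d6. At K36M d2 against d0, 2 of the 23 rose and 11 fell, and in K36M noOKSM MEFs against d0, 19 rose and 1 fell. The group of 10 had to stand at least 4 times above WT iPSCs at K36M d4 or d8. Its difference from the list in iPSCs is thus in part set by the rule. A list of 14 macrophage and blood genes, none among the 93, summed to 27.0 to 31.8 CPM in K36M d6 and 74.9 to 79.0 in WT d6, and the leukocyte gene Ptprc was at or below 0.0570 CPM in K36M d2 to d8.

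Germ cell and sex-linked genes had their highest median in K36M cells at d8, a day whose levels the rule used to choose genes. Of these 7 genes, 1 rose at K36M d2 against d0 and all 7 rose at d6 against d2, while 5 fell in iPSCs against d6. Usp9y, a Y-linked deubiquitinase, was at 0 counts at K36M d0 and d2, then 0.565 and 0.420 CPM at d6 and 7.77 and 8.44 at d8, with 0 and 0.167 CPM in K36M iPSCs, and was at or below 0.146 CPM in every WT library. It was the sole gene of the 93 with a mean under 1 CPM at K36M d6. Ube1y1, a Y-linked ubiquitin-activating enzyme of the testis, had 3.81 and 3.57 CPM at K36M d6 and 6.62 and 7.94 at d8, against 0.0488 and 0, and 0.357 and 0.291 CPM in WT. These 2 Y-linked genes were 2.15% of the 93, where 0.0473% of tested genes lay on the Y chromosome, and 6 of the 93 (6.45%) were X-linked, against 3.78%. The widely expressed Y-linked gene Ddx3y was at 127 and 121 CPM in K36M d8 and 104 and 112 in WT d8, with 21.1 and 31.4 in K36M iPSCs and 19.3 and 42.3 in WT iPSCs. Xist was at 31.0 and 47.5 CPM in K36M iPSCs and 28.3 and 39.0 in WT iPSCs, and at or below 2.74 CPM elsewhere, and its part in the values of sex-linked genes in iPSCs was not tested.

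Rhox6, an X-linked homeobox gene of placenta and germ cells, was not among the genes that fell in iPSCs. It had 0 counts at K36M d0 and d2, 10.1 and 5.63 CPM at d6, 22.9 and 22.9 at d8 and 10.4 and 12.6 in iPSCs, against 0 and 0.0508, 0.981 and 1.34, and 4.39 and 5.85 CPM in WT at d6, d8 and in iPSCs. K36M was above WT without overlap at each of these 3 stages. Rhox6 was at least 98.8-fold higher at K36M d6 than at d2 (edgeR adjusted p = 1.72e-09), and in iPSCs against d6 its log2 fold change of 0.48 ± 0.24 did not pass (edgeR adjusted p = 0.082). Obox6 and Nlrp4c, known from oocytes, reached 6.68 and 6.46 CPM and 6.62 and 5.48 CPM at K36M d8, against 0.134 and 0.262 CPM and 0.178 and 0.117 CPM at WT d8. Tex13, an X-linked gene of spermatogonia, had 15.8 and 11.2 CPM at K36M d8, against 0.490 and 0.612 CPM at WT d8. In a list of 25 germline genes that were found, Rhox6 included, 24 were tested, and 20 rose in iPSCs against d6 with 0 falls, where Rhox6 did not pass and none of the other 6 genes of the group rose. The genes of the group had to stand at least 4 times above WT iPSCs at K36M d4 or d8. This difference from the list is thus in part set by the rule.

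Among 16 transporters and enzymes, 14 rose and 2 fell at K36M d6 against d2, and all 16 fell in iPSCs against d6. Cyp2b23, a cytochrome P450 of the drug-metabolizing 2B family, had 25.6 and 26.8 CPM at K36M d4, 142 and 107 at d6, 153 and 160 at d8 and 0.457 and 0.335 in iPSCs, against 0 counts at WT d4, 1.51 and 1.07 CPM at WT d6, 5.17 and 6.58 at WT d8 and 0.329 and 0.363 in WT iPSCs. Every K36M library of d4 to d8 was above every WT library, and the genotypes overlapped in iPSCs. At K36M d6 against d2 it was at least 1578-fold higher, with 5555 counts against 0 (edgeR adjusted p = 8.2e-15), and in iPSCs against d6 the log2 fold change was -8.35 ± 0.25 (edgeR adjusted p = 2.53e-14). Mep1b, the beta subunit of the protease meprin, had 37.9 and 42.8 CPM at K36M d8, against 1.02 and 0.757 CPM at WT d8, and was at least 137.5-fold higher at K36M d6 than at d2 (edgeR adjusted p = 2.93e-08). Serpina3m, a serine protease inhibitor, had 13.9 and 15.6 CPM at K36M d8, against 0.357 and 0.291 CPM at WT d8.

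Ces2e, a carboxylesterase, and Naalad2, a relative of glutamate carboxypeptidase, were the enzymes that rose first and then fell. Naalad2 had a mean of 21.6 CPM in the 2 libraries of K36M d2, the higher at 24.0, then 24.4 and 23.4 at d4, 4.24 and 10.8 at d6 and 3.99 and 4.33 at d8, against 1.20 and 0.934, 0.592 and 0.777, 0.732 and 0.609, and 0.535 and 0.466 CPM in WT. It fell by 1.51 at K36M d6 against d2 on the log2 scale (SE 0.24, edgeR adjusted p = 1.09e-05), and the K36M d6 replicates were over 2-fold apart. Ces2e fell by 0.62 at K36M d6 against d2 (edgeR adjusted p = 0.0075), a call lost without K36M d2 replicate 1 (edgeR adjusted p = 0.0563). It had 15.9 and 14.8 CPM at K36M d2 and 3.12 and 4.33 at d8, against 0.742 and 0.778, and 0.936 and 1.05 CPM in WT. Car2 (carbonic anhydrase 2) had 72.2 and 87.0 CPM at K36M d8, against 10.8 and 9.56 CPM at WT d8, and Atg9b, a membrane protein of autophagy, was at 54.0 and 57.6 CPM already at K36M d2, against 13.1 and 11.5 CPM at WT d2.

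The remaining coding genes included muscle, nerve and unplaced genes. Sept4, a septin, fell before it rose: it had 80 counts at K36M d0, 1 at d2 and 685 at d6, and 37.8 and 30.9 CPM at K36M d8, against 1.25 and 1.46 CPM at WT d8. Its log2 fold change at K36M d2 against d0 was -5.91 ± 0.71 (edgeR adjusted p = 1.53e-07). WT libraries also held fewer Sept4 counts at d2 (2 and 3) than at d0 (41 and 32). Actc1, the cardiac actin, fell by 2.03 at K36M d2 against d0 (SE 0.51, edgeR adjusted p = 0.0013), did not pass at d6 against d2, and had 5.91 and 4.82 CPM at K36M d8, against 0.178 and 0.408 CPM at WT d8. In WT it had 11 and 4 counts at d0 and 3 and 2 at d2. Of 24 listed heart genes, Actc1 included, 19 were tested, and 7 rose and 7 fell at K36M d6 against d2. Sncg, gamma-synuclein, had 68.0 and 69.8 CPM at K36M d4 and 104 and 75.0 at d6, against 6.29 and 5.12, and 5.07 and 5.23 CPM in WT. Bcl2l15, of the Bcl2 family, had 10.3 and 10.5 CPM at K36M d4, against 0.646 and 0.227 CPM at WT d4.

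In MEFs without OKSM, Krt8, Krt18, Sncg, Slc52a3 and Naalad2 were among the genes that stood higher in K36M than in WT. With both K36M libraries above both WT libraries and at least a 2-fold difference as the limits, 32 of the 93 genes were higher in K36M noOKSM MEFs than in WT ones (6.39% of all tested genes were), 0 were lower, and at d0 8 were higher (1.86%). The same limits held for 50 genes at d2 (3.8%) and 85 at d4 (10.6%), then 89 at d6 (15.3%) and 81 at d8 (13.5%), with 4 in iPSCs (0.278%). At no stage was any of the 93 lower by these limits, where of all tested genes 1.07% were lower at d0, 1.47% at d2 and 7.84% at d4, then 15.7% at d6 and 10.1% at d8, with 0.154% in iPSCs and 1.85% in noOKSM MEFs. WT levels entered the rule at every stage, so nothing is read from these counts beyond the values. Krt8 had 81.2 and 87.7 CPM in K36M noOKSM MEFs, against 0.393 and 0.393 CPM in WT noOKSM MEFs. Slc52a3, a riboflavin transporter, had 13.6 and 14.2 CPM in K36M noOKSM MEFs, against 0.253 and 0.229 CPM in WT noOKSM MEFs, and Naalad2 had 24.3 and 23.3 CPM, against 1.38 and 1.28 CPM. Krt18 and Sncg had 88.5 and 100.1 CPM and 52.0 and 74.2 CPM in K36M noOKSM MEFs, against 11.3 and 13.7 CPM and 4.13 and 4.82 CPM in WT noOKSM MEFs.

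Set against K36M d0, which are also MEFs, K36M noOKSM MEFs had Krt8 higher by 3.11 ± 0.11, Sncg by 3.95 ± 0.19, Slc52a3 by 4.49 ± 0.21 and Stra6 by 4.67 ± 0.44 on the log2 scale (edgeR adjusted p = 1.04e-14, 6.24e-13, 4.28e-13 and 5.83e-08). Gpr132, a G protein-coupled receptor of immune cells, had 67 counts in K36M noOKSM MEFs and 1 at K36M d0, and Wnt6 had 57 and 2 counts (edgeR adjusted p = 4.6e-07 and 5.7e-05). Car2 fell by 1.67 and Aim1 by 0.88 on the log2 scale (SE 0.55 and 0.26, edgeR adjusted p = 0.0216 and 0.0114), and Mal2 had 1 count against 11 (edgeR adjusted p = 0.0263). Each of these 3 calls was lost without K36M d0 replicate 2, where edgeR's adjusted p was 0.181, 0.0596 and 0.0980. None of the 7 germ cell and sex-linked genes passed in either direction. The noOKSM libraries carry another library series name than the rest, so library series and stage cannot be told apart here.

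**Figure D5:**
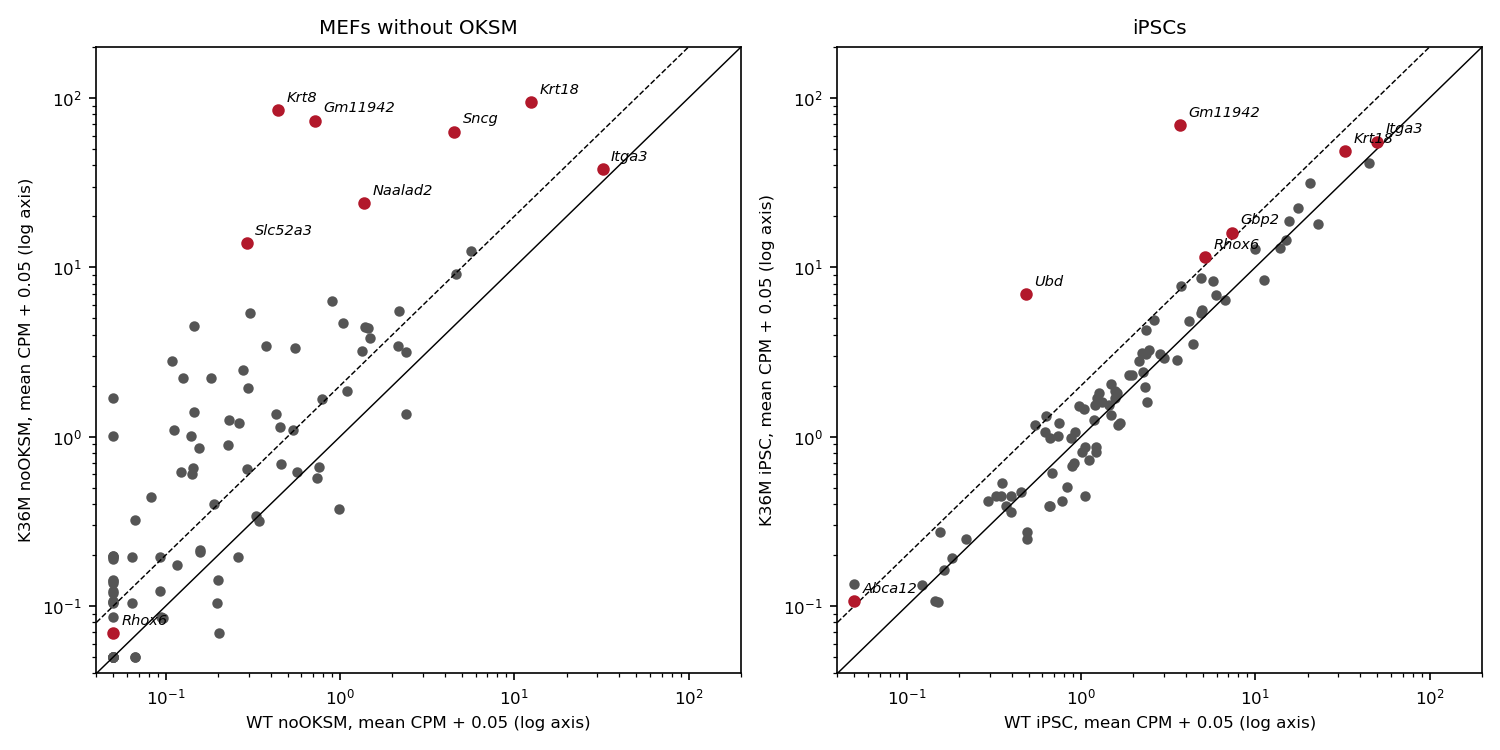
Mean CPM of each of the 93 genes in K36M (vertical) and WT (horizontal) noOKSM MEFs (left) and iPSCs (right), on log axes with 0.05 added, with a solid line at equality and a dashed line at 2-fold. In noOKSM MEFs Krt8 stands at 84.5 CPM in K36M and 0.393 in WT, while in iPSCs most genes lie near equality and Gm11942 and Ubd lie apart.

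In iPSCs, 4 genes kept K36M above WT by these limits: Gm11942, Ubd, Gbp2 and Rhox6. In K36M iPSCs against K36M d6, the 5 genes that did not pass were Rhox6, Actc1, Tex13, Mmp25 and Gbp2, with edgeR adjusted p between 0.0738 and 0.927. Against K36M d0, rises in K36M iPSCs from 0 counts at d0 were at least 197-fold for Rhox6, 55.2-fold for Sowahb, 47.9-fold for Mep1b and 30.0-fold for Tex13 (edgeR adjusted p = 1.17e-10, 1.47e-11, 4.06e-06 and 5.87e-05). Cdcp1, a transmembrane protein of epithelia, had 664 counts in K36M iPSCs and 4 at K36M d0, higher by 7.46 ± 0.39 on the log2 scale (edgeR adjusted p = 1.07e-13). Esam, Airn and Naalad2 were lower in K36M iPSCs than at K36M d0, with log2 fold changes of -2.98 ± 0.31, -2.23 ± 0.29 and -2.20 ± 0.39 (edgeR adjusted p = 1.01e-08, 3.73e-07 and 2.33e-05).

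Noncoding and clone-named genes, of which all 9 rose at K36M d6 against d2 and all 9 fell in iPSCs against d6, held the sole gene that was at least 2-fold higher in K36M, without overlap, at all 7 stages. Gm11942, a pseudogene at chr4:33051739-33052247 on mm9, had between 54.5 and 123 CPM in all 14 K36M libraries and between 0.491 and 3.79 CPM in all 14 WT libraries. At K36M d2 against d0 it did not pass the test (log2 fold change 0.11 ± 0.13, edgeR adjusted p = 0.476). Its sequence matched the transcript of the ribosomal protein gene Rplp1 at 97.8% over 495 of 509 bases, with 11 mismatches, so its reads and those of Rplp1 may be shared, and its level is uncertain. Rplp1 itself was at 1186 and 1237 CPM in K36M d8 and 1744 and 1646 in WT d8. Airn, the antisense transcript of the imprinted gene Igf2r, had 11.1 and 12.3 CPM at K36M d8, against 1.02 and 1.63 CPM at WT d8, and without a stated strand setting its reads cannot be told apart from those of the gene it overlaps. AI662270 and Gm11427, next to Slfn3 on chromosome 11, had 57.6 and 58.7 CPM and 14.1 and 13.5 CPM at K36M d8, against 1.65 and 1.14 CPM and 0.134 and 0.0291 CPM at WT d8. Counts of Cyp2b23, Ces2e, Serpina3m, Gbp2, Slfn3, Clec2i, Nlrp4c, Obox6, Nxf7, Usp9y and Ube1y1 may be shared with near-identical relatives, and the handling of such reads is not given in the sources used here.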

How the data were processed

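RNA of 28 libraries was poly(A) selected, made into directional libraries and sequenced on an Illumina instrument, per the labels' protocols. The authors deposited raw counts per gene; STAR 2.5.0, HTSeq 0.11.2, edgeR and the mm9 build are named in the submitters' processing notes, and the strand setting is not given in the sources used here. Of 37620 gene IDs, 37205 matched GENCODE vM1, which is on mm9. Groups followed the labels. Counts were tested with edgeR 4.0.16 (R 4.3.3, limma 3.58.1): filterByExpr (minimum count 10, minimum total 15), TMM scaling, and a robust quasi-likelihood fit of all 28 libraries in 14 groups with 14 residual degrees of freedom. Benjamini-Hochberg adjustment ran over 16932 genes, with a threshold of 0.05. DESeq2 1.42.0 was an alternative. The fit was tried on simulated data in which genes had the same mean in all groups, except genes of at least 5 CPM changed in K36M d6. It recovered 97 of 100 genes changed 2-fold at K36M d6 against d2, and 95 of 100 in iPSCs against d6. Changes from 0 counts in a group, and the wider gap between the K36M d6 libraries, were not simulated. Folds against 0 counts used a floor of 3 counts over the group and, like all count limits, cover counting error only.

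The genes and lists were chosen with earlier results of these data known, and the role groups were made after the values were seen. Genes were named by a rule: the 15 largest ratios, up to 4 rises and 4 falls per comparison, up to 6 members per list, receptors and ligands within the top 40 ratios, and 3 on each side of the limits. Dmkn, Sbsn, Tgm1, Ppl, Klk10, Itga3, Pak6, Prtg, Esam, Mmrn2, Slfn3, Atg9b, Gm11942, AI662270 and Gm11427 were among those named after their values were seen. Likeness to Hand1 was not computed because Hand1 fell below the 5 CPM minimum. Gm11942 was compared with transcripts by blastn 2.17.0. Alternatives changed the rule's limits, the scaling, the filter and the tool, added a replicate block and left out each library. Replicate numbers were not used to pair libraries in the main fit, and whether same-numbered libraries share an origin is not stated. Of the 93 genes, 1 is counted but not reported by name here.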

Additional observations from a re-analysis of the deposited data

How the results depend on the processing

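The number of genes was 324 at 2 times the highest WT group, 29 at 8 times and 447 without the WT iPSC and WT noOKSM groups, against 93 as reported, and 92 to 99 with each library left out. At 2 times the highest WT group, the limits were met by 22 of the genes in K36M d2, 160 in K36M d6 and 5 in K36M iPSCs. With each library left out, the falls were 4 to 5 at K36M d2 against d0, 3 to 5 at d6 against d2 and 0 to 2 in noOKSM MEFs against d0, and the rises in iPSCs against d6 were 0 to 1. Without a filter on low counts, that rise count was 1. Ly6g6c at K36M d2 against d0 had log2 fold changes between 0, without K36M d2 replicate 1, and 5.71, without K36M d2 replicate 2. Of 351 calls on a gene in a comparison, 302 kept their call under every alternative and 49 lost it under at least 1, 14 of these outside leave-one-out settings. The cause of these changes was not tested. The replicate block gave 57 rises and 7 falls at K36M d2 against d0, 82 and 5 at d6 against d2, 0 and 88 in iPSCs against d6, 64 and 9 in iPSCs against d0, and 39 and 3 in noOKSM MEFs against d0. Deviations of same-numbered libraries from their group means correlated at -0.22 to 0.22 over 91 pairs of groups, with 7 over 0.1. With 2 libraries a group, depth limits genes with few counts, such as those at 0 in MEFs.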
